A study of Caenorhabditis elegans with 4 samples.

Results

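This account covers the 215 regions on the X chromosome among the 1082 regions bound by UNC-39 in embryos of the nematode Caenorhabditis elegans. They were chosen by position alone, as all rows of the combined region list that name chromosome X. The separate lists of ChIP replicate 1 and replicate 2 held 76 of 318 and 216 of 1077 regions on X. The animals were of strain OP186, in which the unc-119(ed3) mutation is rescued by unc-119 carried on the transgene wgIs186. This transgene also carries unc-39 fused at its C-terminus to TY1, EGFP and FLAG tags, so the protein precipitated was a tagged copy made from a bombarded transgene. All samples shared this genotype, the embryonic stage, a mixed population of males and hermaphrodites and growth at 20 °C, and no untagged strain was among them. In 2 ChIP samples, chromatin fixed with 2% formaldehyde was immunoprecipitated through the EGFP tag, with antibodies raised in goat. The other 2 samples were inputs of total chromatin DNA, for which no list was analysed here. The description labels call the ChIP samples input DNA and name the antibody on the inputs, against their titles, and the titles were followed. Embryos were taken whole, so a region does not tell in which cells the protein was bound.

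UNC-39 belongs to the sine oculis family of homeodomain proteins, transcription factors that bind DNA and are known in animals for roles in muscle and other mesoderm. In C. elegans, mutations in unc-39 disturb mesodermal and neuronal fates. The X chromosome of this species is a sex chromosome: hermaphrodites carry a pair of X chromosomes and males a single copy, and a dosage compensation complex lowers X expression in hermaphrodites. The X is largely silent in the germ line and is rich in genes of somatic tissues such as muscle and neurons. On the autosomes, gene-dense centres with little recombination are flanked by arms with more recombination, whereas on X this contrast is known to be weaker.

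Each region has a start, an end and a q-value, a p-value corrected for multiple testing, as the peak caller PeakSeq gave it. Stronger here means a smaller q, which depends on sequencing depth as well as on occupancy and is not a level of binding. The lists give no read counts, so depth is unknown. Coordinates are on WormBase WS180. The genes at these positions and the DNA sequences of the regions were not analysed here, since neither an annotation nor a genome of that build was at hand.

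The strongest region on X lay in the centre of the chromosome, at chrX:11605358-11606507, a width of 1150 bp. Its q was 5.74e-57 in the combined list, while replicate 1 gave 8.13e-32 and replicate 2 gave 1.48e-56. It ranked 1 of all replicate 1 regions and 2 of all replicate 2 regions. On the −log10 scale it stood at 56.24 in the combined list, and the next X region at 29.92, so a wide gap separated it from the rest of X. That next region, chrX:12691504-12693615, lay in the right arm close to the centre and ranked 6 in replicate 1, with q = 4.11e-18.

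The other 8 of the 10 strongest X regions were spread over all 3 segments of the chromosome. In the left arm were chrX:2042607-2043710 (q = 6.15e-30), chrX:4208633-4209463 (q = 2.53e-23) and chrX:806509-806846 (q = 3.66e-20). In the centre were chrX:11093857-11094318 (q = 7.35e-24) and chrX:6296221-6296739 (q = 1e-23). In the right arm were chrX:16929394-16930483 (q = 9.59e-25), chrX:13144027-13145548 (q = 5.27e-21) and chrX:13700620-13701033 (q = 1.05e-20). All 10 met a region in both replicate lists, with q in replicate 1 from 8.13e-32 to 1.21e-10. Meeting replicate 2 is no separate support, since most X rows of the combined list are rows of replicate 2. Among the 217 combined regions with the smallest q on all chromosomes, 185 (85.3%) met replicate 1. Their widths ran from 338 to 2112 bp. The first 3 X regions of replicate 1 were those that ranked 1, 2 and 5 on X in the combined list. The fourth there, chrX:14525658-14526033 (q = 6.93e-15 in replicate 1), ranked 12 on X in the combined list.

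**Figure D1:**
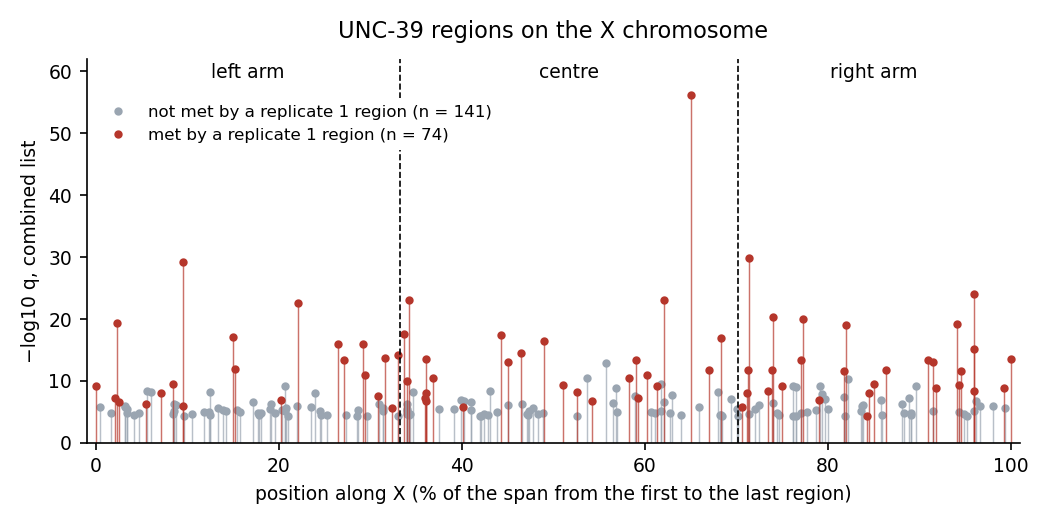
Each of the 215 X regions of the combined list is drawn as a stem at its position along X, as a percentage of the span from the first to the last region, with −log10 q as its height. Red stems (n = 74) met a replicate 1 region and grey stems (n = 141) did not; dashed lines divide the left arm, centre and right arm. The tallest stem, at 56.24, stands in the centre, and most tall stems in every segment are red.

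Along the chromosome, the regions were spread close to evenly over the left arm, the centre and the right arm. The left arm was taken as the part below 6.137 Mb, the centre as the part up to 12.48 Mb and the right arm as the part above. Each region was placed by its midpoint. The combined list held 72 regions in the left arm, 74 in the centre and 69 in the right arm. Over the 17.2 Mb between the first and the last region, this gave 12.6 regions per Mb in the left arm (95% Poisson interval 9.84 to 15.8), 11.7 in the centre (9.16 to 14.6) and 13.4 in the right arm (10.5 to 17.02). None of these counts passed the test against the segment's share of the span (two-sided exact binomial test, Benjamini-Hochberg adjustment over 3 segments, adjusted p = 0.942, 0.72 and 0.72). In replicate 1 the densities were 3.84, 3.94 and 5.65 regions per Mb, and 29 of 76 regions lay in the right arm against 22.7 for its share of the span. That excess did not pass the exact binomial test (adjusted p = 0.395). In replicate 2 the densities were 12.4, 11.8 and 13.6 per Mb (exact test, adjusted p = 0.943, 0.79 and 0.79). Intervals here and below cover counting error only, and the tests take regions as independent of each other. The first region of X began at 410018 and the last ended at 17611498, and these stand in for the chromosome ends.

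**Figure D2:**
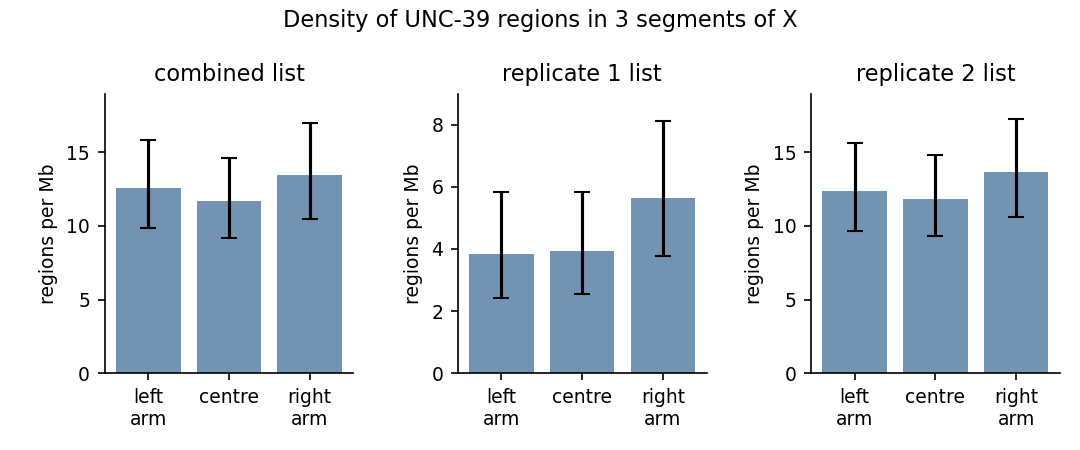
Bars give UNC-39 regions per Mb in the left arm, centre and right arm of X for each list, and error bars the exact 95% Poisson interval; the replicate 1 panel has its own scale. In the combined list the bars stand at 12.6, 11.7 and 13.4 regions per Mb and their intervals overlap.

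As on each of II to V, no full window of 1000000 bp on X was empty of combined regions. In replicate 1, X and III had 0 empty windows, II had 1, IV had 2 and V had 3. The 16 full windows of this size within the span held from 6 to 18 combined regions, with a median of 12. Most regions lay in the window from 6000001 to 7000000, with 18, and in that from 13000001 to 14000000, with 16. The next were 4 windows with 15 each. The fewest, 6, lay between 9000001 and 10000000, followed by 9 between 4000001 and 5000000 and by 10 in each of 2 windows starting at 11000001 and 15000001. The variance of the window counts divided by their mean was 0.73 on X, against 1.11 on chromosome IV, 2.29 on V, 2.32 on III and 3.62 on II. X therefore had the smallest value among these 5 chromosomes in the combined list, and also in replicate 2, where it was 0.75. Since 174 of the 215 X regions of the combined list are rows of replicate 2, these lists are not independent. In replicate 1 the ratio was 1.22 on X, inside the range of 0.86 to 2.92 on II to V. These ratios are descriptions and were not tested.

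The density of regions on X was above that of chromosomes IV and V and lay between those of II and III. X had 12.5 combined regions per Mb of its span (10.9 to 14.3). The values were 10.5 on II (8.93 to 12.3), 13.4 on III (11.6 to 15.5), 7.59 on IV (6.34 to 9.01) and 7.12 on V (6.02 to 8.37). Over II to V together it was 9.31 per Mb (8.59 to 10.1), and the ratio of X to these was 1.34 (95% interval 1.15 to 1.57). The same ratio was 1.43 in replicate 1 (1.1 to 1.86) and 1.36 in replicate 2 (1.17 to 1.59). In replicate 1 the order was again III first with 5.01 per Mb, then X with 4.42, II with 3.72, IV with 2.80 and V with 1.59. The intervals of X and III and those of X and II overlap in all 3 lists, so these neighbours in the order were not told apart. The interval of X was clear of that of V in all 3 lists, and of that of IV in the combined and replicate 2 lists but not in replicate 1. Chromosome I is left out of these comparisons, since the replicate lists differed most there: 14.6% of its combined regions met a replicate 1 region. Its density was above that of X in the combined list, at 16.6 per Mb (14.6 to 18.8), but below it in replicate 1, at 2.43.

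Spacing followed this density only in part. Neighbouring X regions were separated by a median of 55.9 kb, with quartiles at 18.1 and 119 kb, against a median of 65.0 kb over II to V. The single medians were 48.1 kb on II, 53.8 kb on III, 80.9 kb on IV and 92.3 kb on V. The median gap was thus shorter on II than on X, although II had fewer regions per Mb. The longest gaps on X were 402148 bp in the right arm, between 16209991 and 16612140, 350946 bp in the centre, between 8836239 and 9187186, and 309843 bp in the right arm, between 14169895 and 14479739. The longest gap was 389 kb on III, 859 kb on II, 858 kb on IV and 1243 kb on V, so X and III lacked the long empty stretches of the others.

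The share of regions with a neighbour within 2000 bp did not differ detectably between X and II to V, and its direction depended on the list. They made up 25 of 215 X regions, or 11.6% (95% Wilson interval 8.00 to 16.6%), beside 15.2% of all combined regions and 83 of 621 regions, or 13.4%, on II to V. The difference of X from II to V was -1.74 percentage points (95% interval -6.38 to 3.81) and did not pass the test (two-sided Fisher's exact test with Benjamini-Hochberg adjustment over 4 comparisons of X with II to V, adjusted p = 0.557). In replicate 1 the share was higher on X, at 11.8% against 7.77% (Fisher's exact test, adjusted p = 0.344), and with a limit of 5000 bp the odds ratio in the combined list turned from 0.853 to 1.03. The 25 X regions of the combined list formed 10 groups, 7 of them pairs. By segment, 4 of 72 left arm regions, 13 of 74 centre regions and 8 of 69 right arm regions had such a neighbour, which was not tested.

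The 3 groups of more than 2 close regions each held a strongest member that replicate 1 also had. The group in the right arm ran over 3688 bp with 4 regions. Its strongest member was chrX:16929394-16930483, named above, and it was followed after 290 bp by chrX:16930774-16930983 (q = 3.86e-09) and after a further 302 bp by chrX:16931286-16931821 (q = 7.96e-16). These 3 had q of 3.5e-14, 7.01e-06 and 5.68e-08 in replicate 1, while the first of the group, chrX:16928134-16928338 (q = 7.38e-06), was not met there. In the centre, chrX:6619668-6620565, chrX:6621822-6622204 and chrX:6622505-6623166 had q of 7.43e-09, 1.54e-07 and 3.17e-14, and replicate 1 met all 3. Also in the centre, 4 regions lay within 4738 bp from 6252078, of which replicate 1 met only chrX:6253810-6254695 (q = 1.2e-10). At chrX:2042607-2043710 the replicates drew the boundaries differently: replicate 2 had 1 region of 1104 bp where replicate 1 had 2 separate regions, 2042635 to 2043091 and 2043331 to 2043664.

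X regions were wider than those of chromosomes II to V in the combined list, by a moderate amount. Their median width was 414 bp (quartiles 265 and 588 bp), against 349 bp over II to V (240 and 601 bp). The medians of the single chromosomes were 336 bp on III, 339 bp on V, 351 bp on II and 386.5 bp on IV, all below X. The share of regions wider than the list median of 375.5 bp was 57.7% on X (124 of 215, 95% Wilson interval 51.0 to 64.1%) and 46.9% on II to V (291 of 621, 43.0 to 50.8%), beside 50% of all combined regions. The difference of 10.8 percentage points (95% interval 3.06 to 18.3) passed the test (two-sided Fisher's exact test, adjusted p = 0.0284). In replicate 2 the shares were 56.5% and 46.9%, and in replicate 1 they were 57.9% and 46.6%; neither passed (Fisher's exact test, adjusted p = 0.0703 and 0.209). Among the regions with q below the list median, 53.1% on X and 49.8% on II to V were wider than the median of that subset (Fisher's exact test, adjusted p = 0.863), a smaller difference. The call was also lost with chromosome I included (Fisher's exact test, adjusted p = 0.0586) or without chromosome III (adjusted p = 0.12) among the comparison chromosomes, and no excess was seen above 1000 bp, which 16 X regions (7.44%) and 52 regions of II to V (8.37%) exceeded, beside 7.49% of all combined regions.

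The width of X regions ran from 2 to 4788 bp. The widest, chrX:16798254-16803041, was among the weakest on X (q = 3.88e-05, rank 201 of 215) and met no replicate 1 region. The next were chrX:15039912-15042089, with 2178 bp and q = 3.31e-10, and chrX:12691504-12693615, with 2112 bp, the second strongest on X. Both of these met a replicate 1 region. At the other end, 7 of 215 X regions measured under 50 bp, beside 25 of 621 on II to V and 12 of 246 on chromosome I. The narrowest on X were 2 bp at 8510434 (q = 2.11e-05), 6 bp at 17288487 (q = 1.21e-06) and 24 bp at 4025022 (q = 5.3e-05). None of these narrowest regions met replicate 1. The 24 bp region stood as a single base at 4025038 in replicate 2. Within X, median widths were 401.5 bp in the left arm, 410.0 bp in the centre and 416 bp in the right arm. The share above the X median was 48.6% in the centre and 49.6% in the arms (difference -0.997 percentage points, 95% interval -14.7 to 12.8, two-sided Fisher's exact test with adjustment over 3 comparisons of the centre with the arms, adjusted p = 1).

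In strength, X regions as a whole were close to those of II to V. A larger share of X regions than of II to V regions was among the strongest 25%, an alternative cut. The median −log10 q was 6.19 on X (quartiles 4.98 and 9.18) and 5.93 on II to V (4.89 and 8.04). The share with q below the list median was 52.6% on X (113 of 215, 45.9 to 59.1%) and 48.8% on II to V (303 of 621, 44.9 to 52.7%), beside 50% of all combined regions. The difference of 3.77 percentage points (95% interval -3.97 to 11.4) did not pass the test (Fisher's exact test, adjusted p = 0.557). With the strongest 25% of the list in place of the strongest 50%, the shares were 31.6% on X and 23.7% on II to V, beside 25% of all combined regions, which passed narrowly (Fisher's exact test, adjusted p = 0.0474). X held 215 of the 1082 combined regions, or 19.9%, and 30 of the 100 strongest, or 30% (21.9 to 39.6%). In replicate 1 it held 23.9% of the list and 31 of the 100 strongest (22.8 to 40.6%). At other limits of the combined list, X held 15 of the 50 strongest (30%, 19.1 to 43.8%) and 49 of the 200 strongest (24.5%, 19.1 to 30.9%). Both of these intervals include the 19.9% of the list that lay on X. In replicate 1 the interval for the strongest 100 likewise includes the 23.9%. These shares of the strongest regions were not tested, and their intervals are wide.

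Within X, strength did not differ between centre and arms beyond what the test could detect. The median −log10 q was 5.69 in the left arm, 6.64 in the centre and 6.97 in the right arm in the combined list, and 6.54, 7.29 and 6.05 in replicate 1. The order of the segments thus differed between these lists. The share with q below the X median was 55.4% in the centre (41 of 74) and 46.8% in the arms (66 of 141), a difference of 8.597 percentage points (95% interval -5.38 to 22.05, two-sided Fisher's exact test, adjusted p = 0.758). At the left boundary, the last arm region, chrX:6097540-6097783 (q = 4.49e-05), and the first centre region, chrX:6207633-6208054 (q = 2.51e-18), lay over 100 kb apart. At the right boundary, chrX:12458047-12458273 (q = 2.95e-06) and chrX:12480487-12480736 (q = 5.03e-05) lay close to the limit on either side.

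**Figure D3:**
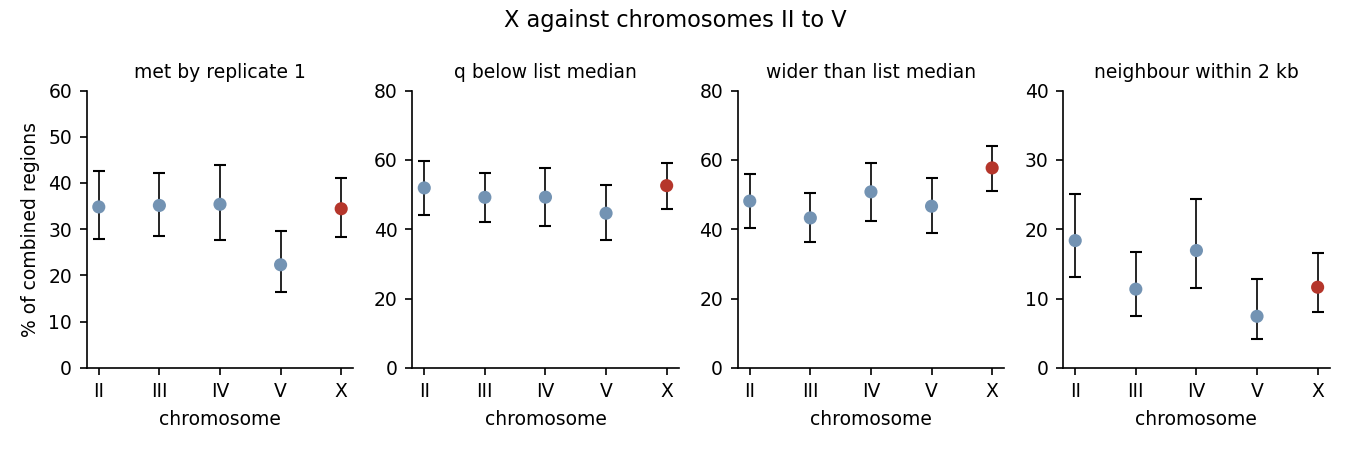
Points give, for chromosomes II, III, IV, V (blue) and X (red), the percentage of combined regions that met replicate 1, had q below the list median, were wider than the list median, or had a neighbour within 2000 bp; bars are 95% Wilson intervals and the panels have different scales. X stands highest for width, at 57.7%, where its interval overlaps those of II, IV and V but not that of III; in the other panels most intervals overlap.

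Support in replicate 1 did not differ detectably between X and chromosomes II to V. Of the 215 combined X regions, 74 met a replicate 1 region by at least 1 bp, or 34.4% (95% Wilson interval 28.4 to 41.0%), beside 28.6% of all combined regions. On II to V it was 199 of 621, or 32.05% (28.5 to 35.8%), and the difference of 2.37 percentage points (95% interval -4.74 to 9.84) did not pass the test (Fisher's exact test, adjusted p = 0.557). The single values were 34.8% on II, 35.1% on III, 35.4% on IV and 22.3% on V, so X was inside their range. With chromosome I included, the autosomes had 27.1%, a larger difference that did not pass either (odds ratio 1.41, Fisher's exact test, adjusted p = 0.0706). Chromosome I had been left out for its low support in replicate 1. Within X, support was 29.2% in the left arm (21 of 72), 33.8% in the centre (25 of 74) and 40.6% in the right arm (28 of 69). The centre and both arms together differed by -0.97 percentage points (95% interval -13.7 to 12.5, Fisher's exact test, adjusted p = 1). The right arm against the left was not tested.

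On X as on II to V, nearly all support lay among the regions with small q. Ordered by q, the whole combined list was cut into 5 classes with 216 or 217 regions each. Among the strongest of these, 50 of 55 X regions met replicate 1 (90.9%, 80.4 to 96.1%), against 107 of 118 on II to V (90.7%). In the next class it was 16 of 38 on X (42.1%) and 60 of 132 on II to V (45.5%). The class after that had 7 of 41 (17.1%) and 26 of 122 (21.3%). Over all combined regions, these 3 classes had 85.3%, 38.0% and 15.7%. In the class before the weakest, 0 of 44 X regions met replicate 1, against 4 of 119 on II to V (3.36%) and 5 of 216 among all regions (2.31%). The 0 of 44 allows a share of up to 6.82% taken as 3 counts of 44 (the Wilson interval ends at 8.03%). For the weakest class the counts were 1 of 37 on X, 2 of 130 on II to V and 3 of 217 among all regions. X regions met by replicate 1 had a median width of 500 bp and a median −log10 q of 11.6, and those not met had 360 bp and 5.23. The strongest X regions that replicate 1 lacked were chrX:9999048-10000171 (q = 1.13e-13, rank 32 on X), chrX:9637253-9637926 (q = 3.05e-11) and chrX:14559381-14560799 (q = 4.61e-11). All 31 X regions stronger than the first of these were found in replicate 1. Absence from the shorter list does not show absence of binding, since its depth is unknown.

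**Figure D4:**
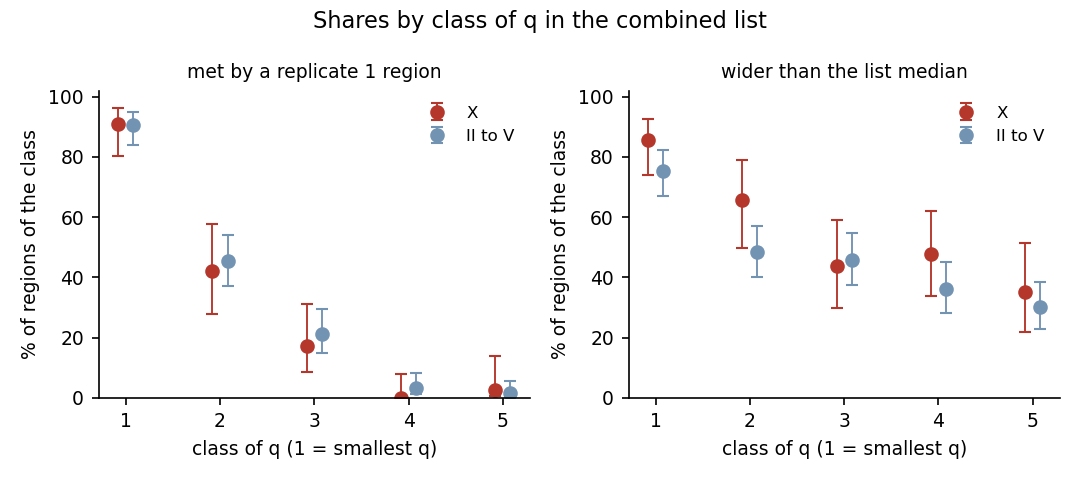
Points give, for 5 classes of q in the combined list (1 holds the smallest q), the percentage of X regions (red) and of regions on chromosomes II to V (blue) that met replicate 1 or were wider than the list median of 375.5 bp; bars are 95% Wilson intervals. Support fell from 90.9% on X and 90.7% on II to V in class 1 to 2.70% and 1.54% in class 5.

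The excess of wide regions on X was not seen in every class of q. In the strongest class, 85.5% of X regions and 75.4% of those on II to V were wider than 375.5 bp, and in the next 65.8% and 48.5%. The middle class showed 43.9% on X and 45.9% on II to V. The last classes showed 47.7% and 36.1%, and 35.1% and 30.0%. Single classes were not tested, and the Wilson intervals of X and II to V overlapped in each of the 5.

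All X regions of replicate 1 were also called in replicate 2. The number was 76 of 76, or 100% (95% Wilson interval 95.2 to 100%), beside 97.8% of all replicate 1 regions and 199 of 206, or 96.6%, on II to V. The share on X was not tested against that on II to V. The 76 regions met 75 replicate 2 regions, since 2 of them fell in the same one. Pairs were formed by overlap, which limits how far apart their midpoints can lie. The midpoints of a pair lay a median of 22.5 bp apart on X, within 100 bp in 63 of 76 pairs and at most 351 bp apart. Over II to V the median distance was 17 bp, and 178 of 199 pairs lay within 100 bp. The replicate 1 region lay wholly inside its partner in 69 of the 76 X pairs and in 166 of 199 on II to V. On X its median width was 415 bp, against 500 bp in replicate 2. The largest distance, 351 bp, was at the last region of X, which spanned 17610294 to 17611498 in replicate 2 and 17611013 to 17611481 in replicate 1.

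Of the X pairs, 74 of 76 had the smaller q in replicate 2, and so had 195 of 199 pairs on II to V. The replicate 1 members had a median −log10 q of 6.41 and their partners of 11.2, and the median difference within a pair was 4.54 on X and 3.398 over II to V. Both quantities depend on the depth of each library, which is not known here. The X pair that went furthest the other way was chrX:14908418-14909375, chosen for mention after its values were seen. It had q = 2.61e-09 and rank 64 of 318 in replicate 1, but q = 4.19e-05 and rank 1019 of 1077 in replicate 2, at 14908350 to 14909375. It stood in the combined list with the start, end and q of replicate 2. Replicate 2 minus replicate 1 in −log10 q was -4.21 for this pair, and chromosome III had a pair at -8.77. The other exception on X, chrX:15736495-15736724, had nearly equal values, q = 3.78e-05 in replicate 1 and 4.36e-05 in replicate 2. It was missing from the combined list although both replicates had it.

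**Figure D5:**
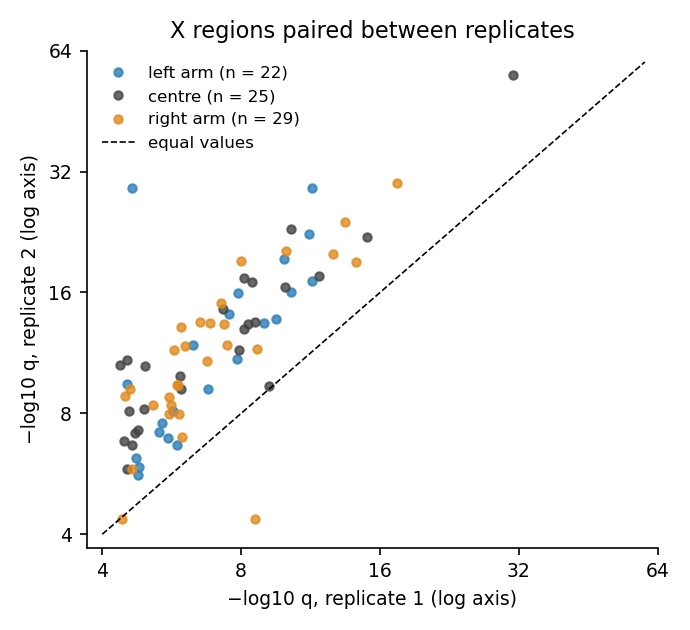
Each point is a pair of overlapping X regions (n = 76), with −log10 q in replicate 1 on the horizontal and in replicate 2 on the vertical axis, both on log scales, coloured by segment of X; the dashed line marks equal values. All but 2 points lie above the line, and the point farthest to its right, at 8.58 and 4.38, is the right arm region that ranked 64 in replicate 1 and 1019 in replicate 2.

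On X as on II to V, the rows of the combined list were mostly those of replicate 2. Of its 215 X regions, 174 (80.9%, 75.2 to 85.6%) had the start, end and q of a replicate 2 region, against 499 of 621 (80.4%) on II to V. The single shares were 85.8% on I, 55.7% on II, 87.0% on III, 91.5% on IV and 88.5% on V, so X stood above II and below the others. The 41 other X regions lay in 4 unbroken blocks, each of 9 to 12 consecutive regions and under 1 Mb long. These ran from 4025022 to 4962686, 7151745 to 7953893, 11029744 to 11937629 and 15039912 to 15841395, and every X region outside them was identical to replicate 2. The strongest X region lay in the block that began at 11029744. In the blocks, 40 regions still met a replicate 2 region, with starts that differed by a median of 3 bp and at most 39 bp and −log10 q that differed by a median of 0.12 and at most 1.12. The remaining one, chrX:4190514-4191017 (q = 1.09e-06), met neither replicate list. No X region of the combined list met replicate 1 alone, so on X the combined list adds little that the replicate 2 list does not hold.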

How the data were processed

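The series measured UNC-39 binding by ChIP followed by sequencing in 2 ChIP samples with 2 inputs, grouped by their titles. The authors deposited 1 region list for each ChIP sample and 1 combined list. The value of a region is the q-value of the deposited PeakSeq output, on WormBase WS180, per the file headers and columns. The aligner, the PeakSeq settings, the q threshold, the control used and the way of combining have no statement in the labels or headers. Regions, not samples, are the units of the tests, and the labels do not say whether the replicates were separate cultures, so no test here measures biological spread.

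Computed from the lists were overlaps (at least 1 bp, the partner with the largest overlap), gaps between neighbours, densities, Fisher's exact tests of X against chromosomes II to V and of the X centre against its arms, and exact binomial tests of the 3 segments. P-values were adjusted by Benjamini-Hochberg within each of these families, with a threshold of 0.05. Tests used scipy 1.17.1 under Python 3.11.15, and figures matplotlib 3.10.9. The tests were checked on simulated lists. Their regions were placed independently of each other, so the check does not cover regions that cluster. Intervals are 95% Wilson intervals for shares, the Newcombe form for their differences and exact Poisson intervals for densities. The interval of a density ratio comes from the Wilson interval of the X share.

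The members, the thresholds and the rule for naming regions were chosen with earlier results of these lists known. Named were the 10 strongest X regions, the strongest of replicate 1 and of those it lacked, the widest and narrowest, close groups, long gaps, extreme windows and regions missing from a list. Alternatives covered overlap, q, width, spacing, list, comparison chromosomes and boundaries.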

Additional observations from a re-analysis of the deposited data

How the results depend on the processing

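Of 73 values under alternatives, over 11 results, 54 kept their direction and their side of the threshold. Only the width of X regions was called in the reported comparison. Its odds ratio of 1.55 against II to V no longer passed among the regions with q below the median (1.14, adjusted p = 0.863 by Fisher's exact test), with chromosome I included (1.47, adjusted p = 0.0586 by the same exact test), without chromosome III (1.45), and in the single lists, where it was 1.58 and 1.47; the cause was not tested. Above 1000 bp it turned to 0.88. The odds ratio for strong regions, 1.16, passed at 1.49 for the strongest 25%. A further 12 values changed direction without a call in either setting. Support on X against II to V turned to 0.971 without chromosome V. Close neighbours turned from 0.853 to 1.03 within 5000 bp and to 1.60 in replicate 1, with 0.982 in replicate 2. The left arm ratio, 1.01, became 0.797 among regions with q below the median, where the centre became 1.01, and 0.869 and 0.987 in replicates 1 and 2. Width in the centre against the arms turned from 0.961 to 1.39 below the median q, 1.04 at 50 bp or more, 1.04 with 3 equal parts of the span, and 1.43 in replicate 1 (0.885 in replicate 2). Support there was 1.03 with 3 equal parts. The density ratio of X to II to V ranged from 1.36 to 1.43 in the single lists. No paired analysis was possible because only the ChIP samples have lists, and these are replicates of 1 group. Depth is unknown, so a region absent from replicate 1 may only have been too weak to call there.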
